A study of Oryza sativa with 6 samples.

Results

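A stretch of rice chromosome 2 was followed in which OsR498G0204306700.01 and OsR498G0204320700.01 were far higher in leaves given the bacterial protein ShSDH1 than in leaves given a control protein. The stretch was chosen because of these 2 genes. It holds every gene of the deposited table whose identifier, read by its 10 digits after OsR498G, lies from 0204280000 to 0204340000. The first digits give the chromosome and the rest a serial order, and no level of expression was required. This gave 104 of the 29011 listed genes. The rise of the 2 genes was therefore the reason for the choice, and their values are given as a description with no test.

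Leaves of rice seedlings aged 2 weeks were sampled 6 h after treatment with a purified protein. The ShSDH1 group (3 libraries) received ShSDH1, an oxidoreductase of the endophyte OsiSh-2 according to the series title. The Control group (3 libraries) received pCold TF protein, the chaperone that a pCold expression vector makes on its own as a fusion partner for solubility. All seedlings were thus given a recombinant protein, and the groups contain no untreated plants. The labels do not name the rice cultivar. They also do not say whether each library had its own plants, so a p-value here reflects how much these libraries vary, part of which may be technical.

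Endophytes live inside plant tissue without causing disease. Plant cells recognise microbial proteins, and also fragments of their own damaged walls, through receptors at the cell surface, and such recognition is followed within hours by broad changes in transcript levels. Plant genomes hold many gene families as tandem copies and some pathway genes as clusters, so neighbours on a chromosome can be related in sequence or in function. Identifiers of this form belong to the genome of the indica rice line Shuhui498. The deposited table gives no gene names, and 0 of its identifiers matched the gene table used here. Roles of the genes are therefore not given, no pathway list could be applied and the leaf label could not be checked against leaf marker genes. Apart from the 2 named genes and 2 lowered genes, members are called by their place from 1 to 104 in identifier order. That identifier order follows position on the chromosome was taken from the identifier form, and no coordinates were used.

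Levels are FPKM, fragments scaled to gene length and to the library's total, so that they can be compared between genes. The lowest values moved in steps of a single fragment, and these steps gave a length for each gene and totals of 33654750 to 41776866 fragments per library. In the shallowest library 66.8 fragments then stood behind 1 FPKM in a gene of the median length in the window, 1984 bases. Testing required 1 FPKM in 3 of the 6 libraries or more, which 72 of the 104 members reached. The other 32 had too little signal and are described separately.

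OsR498G0204306700.01, at place 52, was near the lower limit of the tested genes in Control leaves and well above it with ShSDH1. It had 0.30, 0.61 and 0.36 FPKM in Control replicates 1, 2 and 3, on 18, 35 and 23 implied fragments. With ShSDH1 it had 7.29, 2.81 and 13.3 FPKM in replicates 1, 2 and 3, on 401, 181 and 689 fragments. Only the ShSDH1 libraries reached 1 FPKM, so the gene entered the test through the group where it was high. The groups did not overlap, and the lowest ShSDH1 library was still 4.58 times the highest Control library. Group means of 0.42 ± 0.17 FPKM in Control and 7.79 ± 5.25 FPKM in ShSDH1 leaves (SD, n = 3 each) differed 18.4-fold. In Control 0.104% of all tested genes had a lower mean, and in ShSDH1 leaves 47.5% did. In leaf RNA, a change in the share of expressing cells and one in RNA per cell cannot be told apart. On log2(FPKM + 1) the log2 fold change was 2.43 ± 0.40 (SE). This scale understates the change of a gene so low in Control, and the log2 fold change was 3.70 with a pseudocount of 0.1 and 3.92 with limma's voom on the implied fragments.

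OsR498G0204320700.01, at place 64, was also far higher with ShSDH1, at a higher level. It had 1.47, 1.40 and 0.40 FPKM in Control replicates 1, 2 and 3, on 90, 81 and 26 implied fragments. With ShSDH1 it had 16.6, 9.05 and 31.3 FPKM in replicates 1, 2 and 3, on 928, 592 and 1648 fragments. Control replicates 1 and 2 reached 1 FPKM but replicate 3 did not, so this gene too needed ShSDH1 libraries to enter the test. Again the groups did not overlap, and the lowest ShSDH1 library was 6.17 times the highest Control library. Group means of 1.09 ± 0.60 FPKM in Control and 18.99 ± 11.3 FPKM in ShSDH1 leaves (SD, n = 3 each) differed 17.4-fold. The share of tested genes with a lower mean was 3.09% in Control and 72.5% in ShSDH1 leaves. The filter makes this Control share small too, and nothing is read from it. On log2(FPKM + 1) the log2 fold change was 3.14 ± 0.39 (SE), against 4.0 with a pseudocount of 0.1 and 4.13 with voom. Among all tested genes this gene ranked 5 and OsR498G0204306700.01 ranked 9 by log2 fold change, and they ranked 15 and 13 by ratio of means.

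The ShSDH1 libraries of both genes were far apart. In OsR498G0204306700.01 the exact 95% Poisson intervals, which cover counting error only, were 6.60 to 8.04 FPKM in replicate 1, 2.41 to 3.25 FPKM in replicate 2 and 12.3 to 14.3 FPKM in replicate 3. In OsR498G0204320700.01 they were 15.6 to 17.7, 8.34 to 9.81 and 29.8 to 32.8 FPKM in the same order. The intervals of a gene did not overlap each other, though separate libraries also vary beyond counting error. In both genes replicate 3 was the highest, replicate 1 in the middle and replicate 2 the lowest. The highest ShSDH1 library exceeded the lowest 4.73 times in the former gene and 3.46 times in the latter, where the median of the other 70 tested members was 1.203 times and that of all tested genes 1.18 times. Among the Control libraries the ratio was 2.06 in the former gene and 3.64 in the latter, with medians of 1.16 and 1.15 in the same sets. The wide spread of OsR498G0204320700.01 was thus present in both groups. In Control leaves their libraries did not share an order. OsR498G0204306700.01 was highest in replicate 2, while OsR498G0204320700.01 was lowest in replicate 3, at 0.26 to 0.59 FPKM by the Poisson interval against 1.18 to 1.80 and 1.11 to 1.74 FPKM in replicates 1 and 2.

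The genes were of similar length, with 1543 bases in OsR498G0204306700.01 and 1565 bases in OsR498G0204320700.01. Such a length was not particular to them, since place 55, which lies between them, had 1528 bases and place 13 had 1591 bases. With ShSDH1 the level of the latter was 2.28, 3.22 and 2.36 times that of the former in replicates 1, 2 and 3. In Control the same ratio was 4.93, 2.28 and 1.11. The ratio was thus closer to constant among the ShSDH1 libraries than among the Control libraries. In Control it rests on fewer fragments, but replicate 3 of OsR498G0204320700.01 also lay below replicates 1 and 2 by the Poisson intervals. The difference in spread was not tested. Whether the genes are copies of like sequence, and whether fragments could be assigned to either, was not tested, since no gene sequences were used here.

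**Figure D1:**
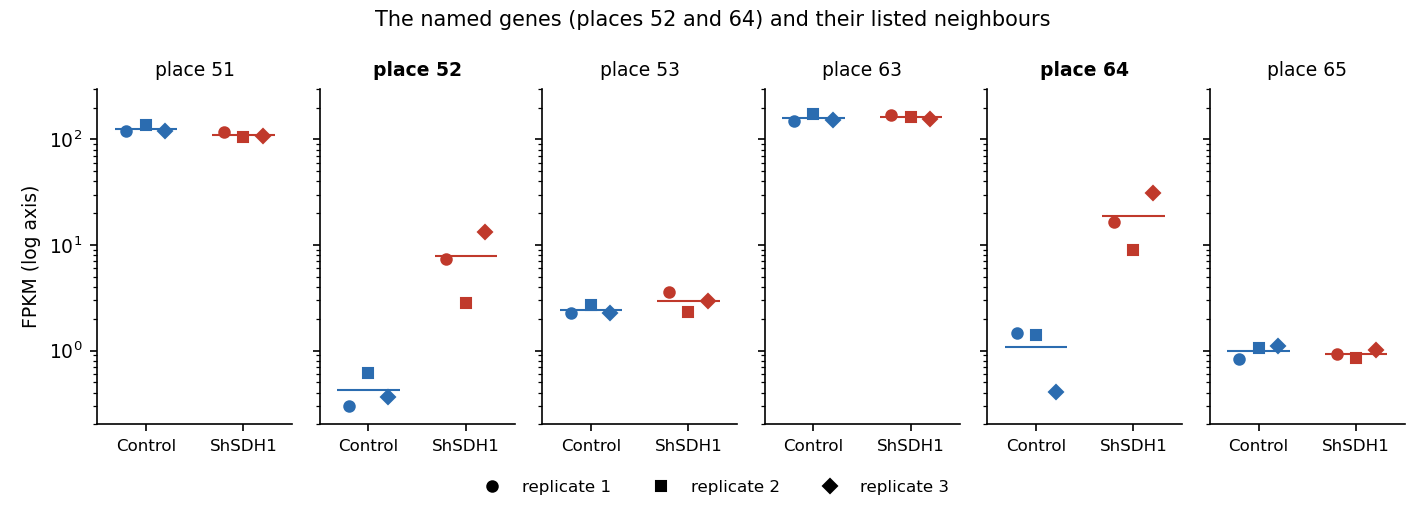
FPKM on a log axis for the genes at places 52 and 64 and for the listed neighbour on each side of them; blue marks are Control libraries, red marks ShSDH1 libraries, the shape gives the replicate and the line the mean. Places 52 and 64 rise from means of 0.42 and 1.09 FPKM to 7.79 and 18.99 FPKM, while each of the 4 neighbours stays within a factor of 1.22 between group means.

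None of the listed genes next to the named genes passed the test. Since 10.2% of all tested genes were higher and 3.75% lower, little can be read from this count in 4 genes. The gene before OsR498G0204306700.01, at place 51, is abundant. It had 119.9, 135.8 and 120.7 FPKM in Control replicates 1, 2 and 3, and 117.7, 104.6 and 108.5 FPKM with ShSDH1. Its groups did not overlap, with ShSDH1 below, but the log2 fold change of -0.18 ± 0.07 (SE) did not pass in limma (adjusted p = 0.130). The gene after it, at place 53, had 2.28, 2.70 and 2.26 FPKM in Control and 3.56, 2.32 and 2.92 FPKM with ShSDH1, groups that overlapped (log2 fold change 0.19 ± 0.13, limma adjusted p = 0.364). Before OsR498G0204320700.01 stood the abundant gene at place 63, with 149.1, 173.8 and 154.1 FPKM in Control and 170.4, 162.0 and 156.3 FPKM with ShSDH1. These groups overlapped too (log2 fold change 0.04 ± 0.07, limma adjusted p = 0.780). The gene after it, at place 65, had 0.83, 1.06 and 1.11 FPKM in Control and 0.92, 0.85 and 1.02 FPKM with ShSDH1 (log2 fold change -0.05 ± 0.11, limma adjusted p = 0.809). Both named genes thus lay beside an abundant gene and a weakly expressed one, and all 4 neighbours had group means within 1.22-fold of each other.

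The named genes were separated by 11 listed genes, at places 53 to 63, which span 140 serial steps of 100. Of these, 5 were tested and 0 passed, with log2 fold changes from -0.29 to 0.19 and a lowest limma adjusted p of 0.235 (0 also had an unadjusted p under 0.05, the lowest being 0.085, and voom called 0). The other 6 were too low to test, with mean levels from 0.02 to 0.34 FPKM. With 10.2% of all tested genes higher and 3.75% lower, 0 calls among the 5 is not read as a lack of response. OsR498G0204320700.01 stood after the widest gap in the window: 50 serial steps lay between it and the listed gene before it, where the next widest gap was 27 steps and the median 3. OsR498G0204306700.01 stood 12 steps from the listed gene on either side. What the unlisted serial numbers stand for is not known from the files, and of the 601 possible steps in the window 104 were listed.

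**Figure D2:**
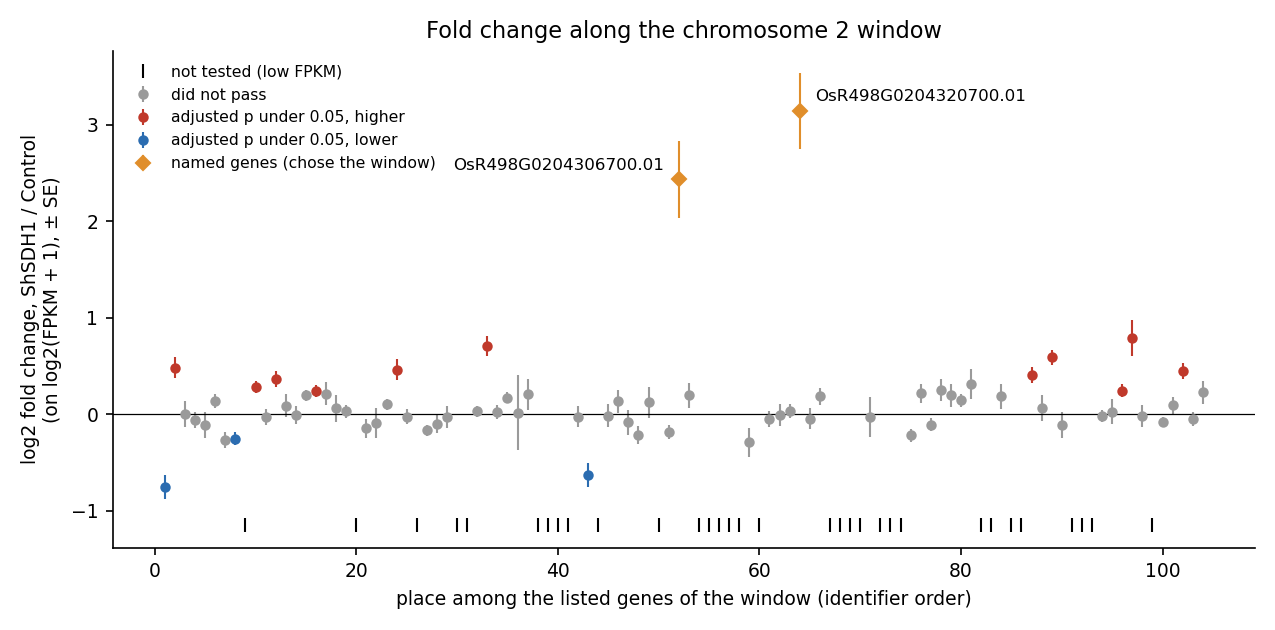
Log2 fold change of ShSDH1 over Control, on log2(FPKM + 1) with its SE, for the 72 tested genes by place in the window; red and blue points passed the limma threshold, grey points did not, orange diamonds are the genes that chose the window and black ticks mark the 32 genes not tested. The named genes stand at 2.43 and 3.14, and every other tested gene lies between -0.75 and 0.79.

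Apart from the named genes, 11 of 70 tested members (15.7%) were higher with ShSDH1 at a limma adjusted p under 0.05, 3 (4.29%) were lower and 56 did not pass. Over all tested genes 10.2% were higher and 3.75% were lower at this threshold, and since the window was chosen on the same contrast nothing is read from its count. The 11 include place 97, which passed the filter through its ShSDH1 libraries, so its call supports nothing. The median log2 fold change of the 70 was 0.03, against 0.04 over all tested genes. None of the 70 was called at 2-fold or more on the log2(FPKM + 1) scale (0 higher and 0 lower, the largest changes being 0.79 and -0.75), where 0.394% of all tested genes were called higher and 0.0812% lower by that measure. The groups did not overlap in 17 of the 70 with ShSDH1 above and in 10 with ShSDH1 below, where the shares over all tested genes were 23.4% and 11.8%.

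The split between higher and lower calls depended on the scaling of the libraries. Apart from the named genes, 6 members were higher and 4 lower with median-ratio size factors, and 8 were higher and 5 lower with quantile normalization. Of the calls over all tested genes, 73.1% were higher with the FPKM as deposited, 56.8% after median-ratio scaling and 55.9% after quantile normalization. The named genes kept their direction under each of these.

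Among the 11 other members that were higher, log2 fold changes ran from 0.24 to 0.79 and ratios of means from 1.19 to 2.68. The largest of these by fold was at place 97, a short gene of 405 bases with little signal. It had 0.25, 1.00 and 0.90 FPKM in Control replicates 1, 2 and 3, on 4, 15 and 15 fragments, and 1.59, 1.83 and 2.35 FPKM with ShSDH1, on 23, 31 and 32 fragments. The groups did not overlap, and Control replicate 1 was the lowest library. All ShSDH1 libraries but only 1 Control library reached 1 FPKM, so the gene passed the filter through the group where it was high. Its log2 fold change of 0.79 ± 0.19 (SE) is therefore a description, and its call was lost with both other pseudocounts and with voom.

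Place 33 rose 1.66-fold at a much higher level. It had 40.7, 43.6 and 43.5 FPKM in Control replicates 1, 2 and 3, and 66.3, 83.3 and 62.7 FPKM with ShSDH1. Every ShSDH1 library was above every Control library, replicate 2 most (log2 fold change 0.71 ± 0.10, limma adjusted p = 0.00576). Place 89 rose 1.56-fold, from 8.92, 9.26 and 9.31 FPKM in Control to 14.5, 15.5 and 13.0 FPKM with ShSDH1 (log2 fold change 0.59 ± 0.08, limma adjusted p = 0.0043). The Control libraries of this gene lay within a narrow range, and the ShSDH1 libraries were all above it. Of the 11 higher members apart from the named genes, only places 33 and 89 passed in every alternative run on them (15 each).

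Another 2 of the higher members were among the most abundant genes of the window. The gene at place 10, the most abundant member, had 341.1, 355.5 and 370.0 FPKM in Control replicates 1, 2 and 3, and 430.7, 448.0 and 417.2 FPKM with ShSDH1. It was 1.21-fold higher, in all ShSDH1 libraries (log2 fold change 0.28 ± 0.06, limma adjusted p = 0.024), but did not pass with median-ratio factors (limma adjusted p = 0.103). Place 24 had 110.5, 111.4 and 105.4 FPKM in Control and 139.7, 181.9 and 133.8 FPKM with ShSDH1, with replicate 2 well above the other ShSDH1 libraries. It was 1.39-fold higher (log2 fold change 0.46 ± 0.11, limma adjusted p = 0.028) and also did not pass with median-ratio factors (limma adjusted p = 0.0737).

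The 6 remaining higher members stood at places 2, 12, 16, 87, 96 and 102. At place 2 the level went from 2.57, 2.80 and 2.78 FPKM in Control to 4.12, 4.91 and 3.64 FPKM with ShSDH1, a 1.55-fold difference (limma adjusted p = 0.022). At place 12 it went from 4.58, 4.38 and 4.73 to 6.34, 6.65 and 5.56 FPKM, 1.35-fold (limma adjusted p = 0.028), and did not pass with quantile normalization (0.0556) or median-ratio factors (0.0545). At place 87 it went from 4.90, 5.63 and 5.62 to 7.10, 7.46 and 7.80 FPKM, 1.38-fold (limma adjusted p = 0.017). These 3 genes were of low to middling level, and in each the ShSDH1 libraries lay above all Control libraries. At place 102 the level went from 27.1, 25.3 and 29.7 to 39.7, 38.8 and 34.7 FPKM, 1.38-fold (limma adjusted p = 0.011). The smallest differences were at place 16, from 19.7, 18.4 and 19.9 to 22.9, 22.1 and 23.9 FPKM, and at place 96, from 33.5, 32.7 and 37.3 to 39.5, 42.8 and 40.8 FPKM. Both were 1.19-fold higher, with limma adjusted p of 0.038 and 0.047, and both failed to pass with quantile normalization (0.0848 and 0.0892) and with median-ratio factors (0.0856 and 0.116).

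The 3 lowered members all stood before the named genes. OsR498G0204280300.01, the first gene of the window, had 2.10, 2.72 and 2.87 FPKM in Control replicates 1, 2 and 3, and 1.21, 1.23 and 0.89 FPKM with ShSDH1. It fell 2.31-fold by ratio of means, with groups that did not overlap (log2 fold change -0.75 ± 0.12, limma adjusted p = 0.00887). OsR498G0204301900.01, at place 43, had 3.11, 4.41 and 3.600 FPKM in Control and 2.21, 1.75 and 2.10 FPKM with ShSDH1. It fell 1.83-fold, again without overlap (log2 fold change -0.63 ± 0.12, limma adjusted p = 0.015), and missed the threshold without Control replicate 2 (limma adjusted p = 0.0546). Place 8 went from 22.3, 20.9 and 19.6 to 17.8, 17.6 and 16.8 FPKM, a 1.204-fold fall (limma adjusted p = 0.040).

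**Figure D3:**
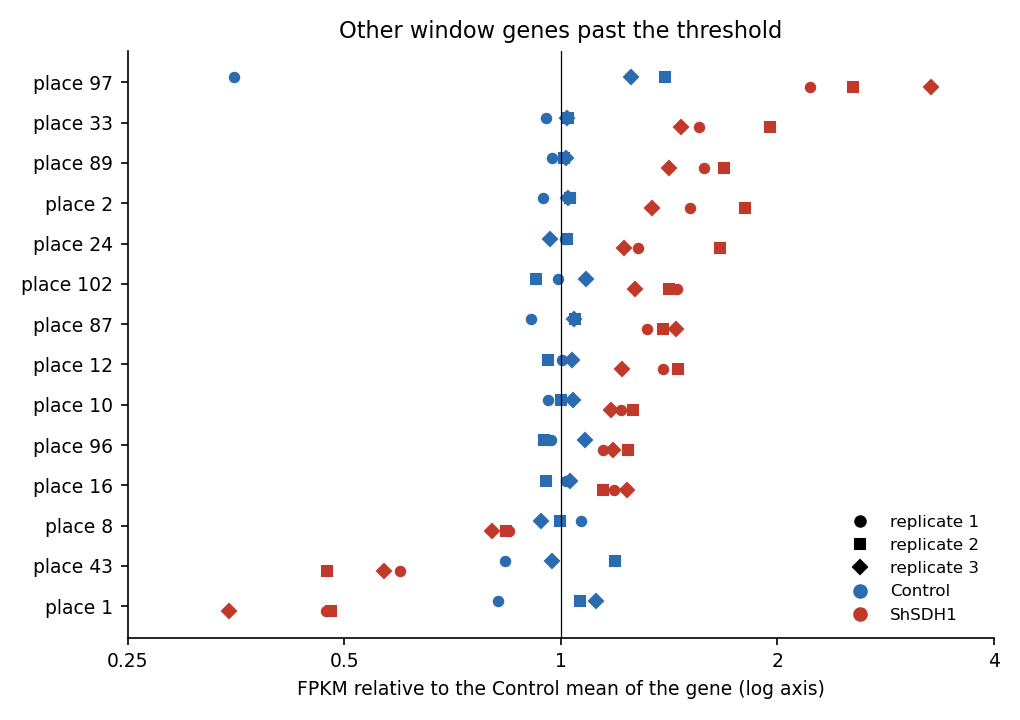
FPKM of each library relative to the gene's Control mean, on a log axis, for the 14 members past the threshold other than the named genes; blue marks are Control libraries, red marks ShSDH1 libraries and the shape gives the replicate. Every ShSDH1 library lies above 2 times the Control mean at place 97 and below 0.5 times at place 1; at place 43 only 1 library lies below 0.5 times, and at the other places all lie between these bounds.

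With a library left out, many of these 14 calls were lost, while each log2 fold change stayed between 0.703 and 1.23 times its value with all libraries. Calls over all tested genes, 2406 with all libraries, also fell to between 562 and 1989, except without Control replicate 3, where they were 2778. Without Control replicate 1 only places 1, 33, 43 and 89 passed, with limma adjusted p from 0.0558 to 0.171 in the other 10. Without Control replicate 2 places 1, 33, 89, 97 and 102 passed, and the others had limma adjusted p from 0.0501 to 0.171. Without ShSDH1 replicate 1 the 8 calls at places 2, 8, 10, 12, 16, 24, 96 and 97 were lost (0.0588 to 0.117), and without ShSDH1 replicate 3 the 6 at places 8, 10, 16, 87, 96 and 97 (0.0537 to 0.112). Without ShSDH1 replicate 2 places 8, 12, 96 and 97 were lost (0.0579 to 0.0894), and without Control replicate 3 place 24 (0.0576). Places 1, 33 and 89 thus passed with any library left out, and all 14 kept their direction in all alternatives run on them.

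The calls were also counted by place. Before the named genes, at places 1 to 51, 6 of 40 tested members were higher and 3 lower. After them, at places 65 to 104, 5 of 25 tested members were higher and 0 lower (1 was lower at an unadjusted limma p under 0.05 and 0 with voom), with a median log2 fold change of 0.14 against 0.01 before the named genes. Over all tested genes 10.2% were higher and 3.75% lower. In the identifier range of the same width below the window, 8 of 64 tested genes were higher and 3 lower, with log2 fold changes from -0.51 to 1.19. In the range above it, 7 of 57 were higher and 2 lower, with log2 fold changes from -0.54 to 1.03. Each of these ranges held 1 gene called at least 2-fold higher, and the window held 0 besides the genes that chose it. These counts are a description of places in identifier order, and their difference was not tested.

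The edges of the window fell between genes of low level. Just before it, the mean level was 0.28 ± 0.14 FPKM in Control and 0.33 ± 0.18 FPKM in ShSDH1 leaves, and the first member fell from 2.56 ± 0.41 to 1.11 ± 0.19 FPKM (SD, n = 3 each). The last member had 1.61 ± 0.06 and 2.07 ± 0.38 FPKM, and the listed gene just after the window 0.16 ± 0.10 and 0.11 ± 0.09 FPKM.

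In both named genes the ShSDH1 libraries ran from replicate 3 through replicate 1 to replicate 2. This order was found in 1 of the 11 other higher members and in 10 of the 70 tested members other than the named genes (14.3%). Of the 11, 6 ran from replicate 2 through replicate 1 to replicate 3. The latter order was found in 34.3% of the 70 tested members and in 20.3% of all tested genes. Replicate 2 was the highest ShSDH1 library in 7 of the 11, and in 35.1% of all tested genes. Among the other 66 genes of the whole table that were called at least 2-fold higher, the order of the named genes was found in 25 (37.9%), and among all tested genes in 22.9%. The difference between these shares was not tested.

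**Figure D4:**
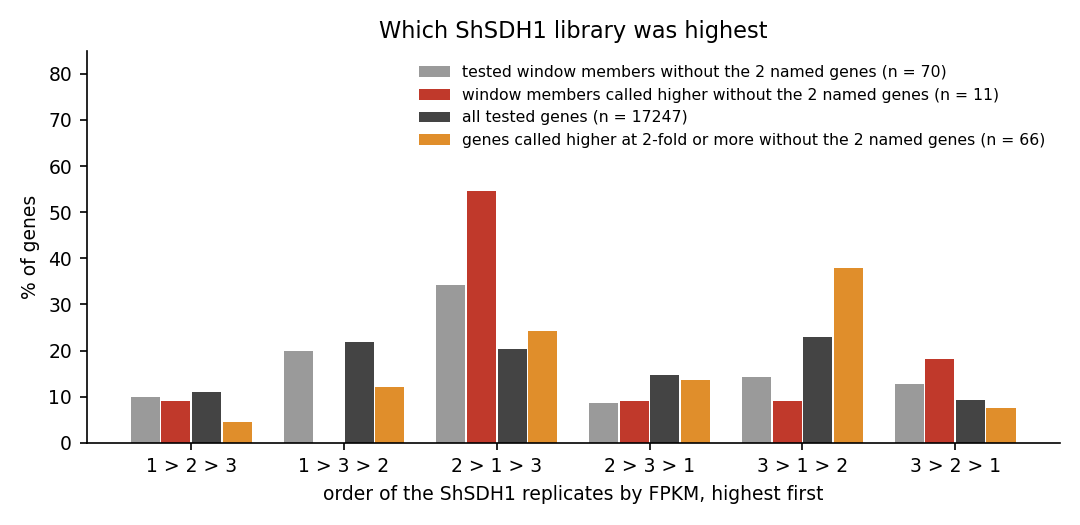
Share of genes, in percent, with each order of the 3 ShSDH1 replicates by FPKM, highest first; bars are the 70 tested members other than the named genes (light grey), the 11 higher members among them (red), all 17247 tested genes (dark grey) and the 66 genes called at least 2-fold higher other than the named genes (orange). The order 2 > 1 > 3 holds 54.5% of the 11 higher members, 34.3% of the 70, 20.3% of all tested genes and 24.2% of the 66. The order 3 > 1 > 2 of both named genes holds 9.09% of the 11, 14.3% of the 70, 22.9% of all tested genes and 37.9% of the 66.

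Levels in the window covered a range from near silence to the level of abundant transcripts. By the mean over all 6 libraries, 18 members lay under 0.1 FPKM, 16 from 0.1 to under 1, 39 from 1 to under 10, 26 from 10 to under 100, and 5 at 100 FPKM or above. The median member had 4.01 FPKM, against 2.23 FPKM over all listed genes, and 69.2% of members were tested, against 59.4% of all listed genes. The 5 most abundant members, at places 4, 10, 24, 51 and 63, made up 48.5% of the summed FPKM of the window in Control and 49.4% with ShSDH1. The named genes made up 0.084% in Control and 1.35% with ShSDH1.

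The window as a whole took a slightly larger share of all fragments with ShSDH1. It held 0.400%, 0.416% and 0.406% of the fragments in Control replicates 1, 2 and 3, and 0.437%, 0.436% and 0.423% in ShSDH1 replicates 1, 2 and 3. The groups did not overlap. Summed FPKM went from a mean of 1804 ± 28.8 to 1981 ± 66.9 (SD, n = 3 each), a difference of 177.0 FPKM. Places 10, 24 and 33 added 76.4, 42.7 and 28.1 FPKM to this difference and the named genes together 25.3 FPKM, while places 7 and 51 took away 18.2 and 15.2 FPKM. The calls at places 10 and 24 were lost with median-ratio factors. Shares and sums include the genes that chose the window, and those of other ranges of this width were not counted. The difference is therefore not read as a trait of the window.

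**Figure D5:**
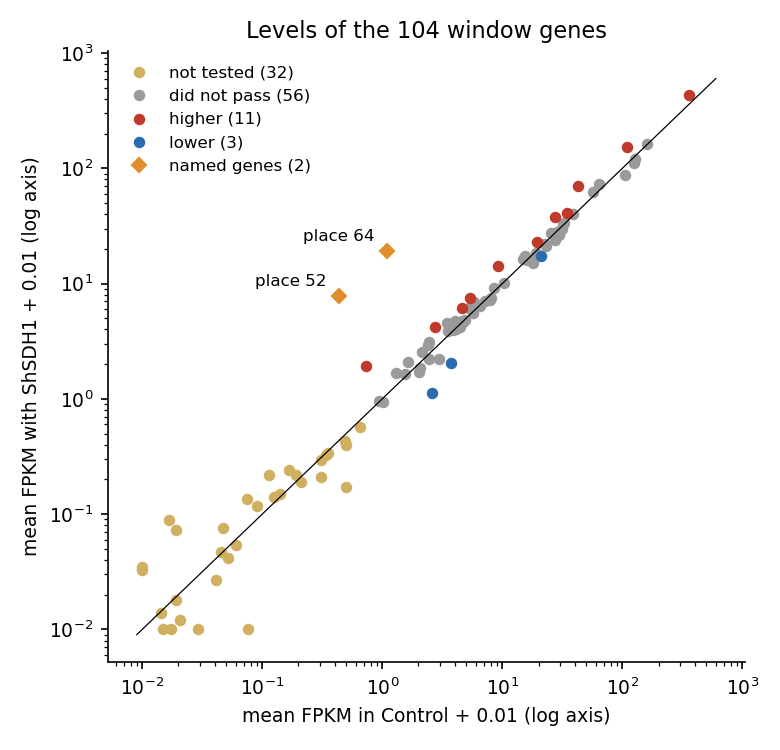
Mean FPKM with ShSDH1 against mean FPKM in Control for the 104 members, each plus 0.01 and on log axes, with the line of equal levels; colours give the result of the limma test and orange diamonds the named genes. The named genes lie far above the line at a Control mean of 0.42 and 1.09 FPKM. The other called genes lie nearer to it, at most 2.68-fold above (place 97) and 2.31-fold below (place 1).

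The 32 members that were not tested had mean levels from 0.003 to 0.60 FPKM, and 22 of them had fewer than 50 implied fragments in all 6 libraries together. A value of 0 in at least 1 library occurred in 13 of them and in 0 of the tested members. At places 26 and 67 all Control libraries were at 0, but the ShSDH1 libraries held only 1, 2 and 0 fragments and 2, 0 and 0 fragments. At 4 places all ShSDH1 libraries were at 0, with at most 2 fragments in any Control library. The groups did not overlap in 3 of the 32, with ShSDH1 above in 2 and below in 1. Over all tested genes these shares were 23.4% and 11.8%. The shares over all genes under the filter were not counted, so nothing is read from the 3. At place 93 the Control libraries had 0, 1 and 3 fragments and the ShSDH1 libraries 15, 5 and 5. At place 69 the levels were 0.09, 0.06 and 0.09 FPKM in Control and 0.10, 0.09 and 0.13 FPKM with ShSDH1, and at place 68 they were 0.48, 0.49 and 0.49 FPKM in Control and 0.36, 0.39 and 0.42 FPKM with ShSDH1.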

How the data were processed

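RNA-seq libraries of rice leaves were compared, 3 with ShSDH1 and 3 with pCold TF protein, with groups taken from the sample titles and columns from the library names in the descriptions. The authors deposited FPKM values with 1 column per library. Which aligner, counting tool, strand setting and annotation they used is not given in the sources used here. Only the mouse builds GRCm38 and mm10 are listed in the submitters' processing notes, so the build is not known. Overlapping genes, or copies of near-identical sequence, may share fragments.

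FPKM are not counts, so limma 3.58.1 in R 4.3.3 (lmFit, eBayes with a mean-variance trend) was run on log2(FPKM + 1) over the 17247 genes that reached 1 FPKM in at least 3 libraries. The two-sided p-values were adjusted over all of these by Benjamini-Hochberg, with a threshold of 0.05. FPKM tie each gene to the total of its library. Totals, lengths and fragment numbers were read from the FPKM steps and fell within 0.00014 of whole numbers in all 29011 genes; they cover counting error only. Each length is the smallest whole number that gives whole fragments, so it may be too short in genes seen in few libraries. The limma test and the reading of the steps were tested on simulated data. There limma called 23 of 50 genes changed 1.5-fold, 44 of 50 changed 2-fold and 47 of 50 changed 4-fold. A gene that did not pass is therefore not read as unchanged. SciPy 1.17.1, pandas 2.3.3 and matplotlib 3.10.9 in Python 3.11.15 gave intervals and figures.

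The members and the way they are described were chosen with earlier results of these data known. Identifiers are printed for the 2 named genes and the 2 largest falls past the threshold; values per library are given for members past the threshold, the neighbours of the named genes and the 3 most abundant members. Places 26, 67, 68, 69 and 93 were added after their values were seen. Alternatives were other pseudocounts, filters and scalings, a replicate block, voom and leaving out each library.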

Additional observations from a re-analysis of the deposited data

How the results depend on the processing

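The count of 16 called members, the named genes included, was 8 with no filter on low values (all 104 members and 29011 genes tested). With libraries left out in turn it lay between 6, in the absence of Control replicate 1, and 19, in the absence of Control replicate 3. It was 12 to 17 under the other alternatives. The named genes chose the window, so these counts support nothing about it. Without the named genes 14 members were called, 6 with no filter and 4 to 17 with a library left out. Under the other alternatives 10 to 15 were called. The 14 include place 97, which passed the filter through its ShSDH1 libraries. Over all tested genes 2406 were called, 1489 with no filter, and 562 to 2778 with a library left out. With no filter more genes enter the adjustment, while with a library left out the same genes are tested on fewer libraries. The cause of each fall was not tested further. The log2 fold change of OsR498G0204306700.01, 2.43, was 3.70, 3.97 and 3.92 with pseudocounts of 0.1 and 0.01 and with voom, and 1.99 to 2.94 with a library left out. For OsR498G0204320700.01 it was 3.14, then 4.0, 4.14 and 4.13, and 2.72 to 3.56. Both were higher in all alternatives run on them; the former was not among the genes tested with a filter at 5 FPKM. Over all tested genes the median log2 fold change was 0.04, and -0.01 after median-ratio scaling or quantile normalization. With the replicate block 14 members were called, the named genes included, and 13 of these were among the 16. Places 8, 16 and 96 were lost. Same-numbered libraries deviated from their group means with correlations of 0.18, 0.27 and -0.02, so the numbers were not taken to pair them. For Control replicates 1 and 2, but not 3, the same-numbered ShSDH1 library had the highest correlation. In the limma fit with no filter, 0 of the 32 members under the filter were called, and 0 had an unadjusted p under 0.05.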

Other observations

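Some members differed more between libraries of a group than between groups. Place 36 had 5.27, 2.07 and 4.07 FPKM in Control replicates 1, 2 and 3, and 6.998, 1.65 and 3.78 FPKM with ShSDH1. Its highest ShSDH1 library exceeded its lowest 4.25 times, the widest such spread among the 70 tested members other than the named genes, and its log2 fold change between groups was 0.02 ± 0.39 (SE). The gene at place 71, among the longest with 6849 bases, had 5.21, 3.96 and 4.76 FPKM in Control and 5.69, 2.81 and 5.52 FPKM with ShSDH1. In both genes replicate 1 was the highest, replicate 3 in the middle and replicate 2 the lowest in either group. The same order of replicate numbers in both groups was found in 12 of the 72 tested members (16.7%) and in 16.9% of all tested genes. Places 36 and 71 were chosen after their values were seen.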
